A study of Mus musculus with 9 samples.

Results

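The families of miR-297, miR-466, miR-467 as well as miR-669 are groups of closely related mouse microRNAs, most of them made from a long tandem array of hairpins inside an intron of Sfmbt2, an imprinted gene for a Polycomb protein. They were taken from the array by name alone, as every mouse miRNA entry whose name begins with one of these 4 family numbers followed by a letter or a hyphen. This gave 61 of the 1881 mouse miRNAs on the array, and entries whose names end in -3p (26) were described apart from all others (35). Lungs of 9 mice were profiled with Agilent miRNA arrays of a single colour, 1 array per mouse. The codonopsis group (n = 3) is labelled with Codonopsis pilosula, a plant of traditional Chinese medicine, at 15 g per kg for 30 days. The model group (n = 3) is labelled with D-galactose and sodium nitrite, a treatment used to imitate ageing, and with 42 days. The control group (n = 3) has no treatment named. The labels do not say whether D-galactose and sodium nitrite were given to the codonopsis mice as well, though the study's title places the plant in ageing mice. Per the labels, the mice of codonopsis 1, codonopsis 2 and control 1 were male, and those of the remaining 6 arrays were female. Strain and age are not given in the sources used here.

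A miRNA hairpin can give a mature strand from either arm, named -5p and -3p, and the strand that is kept guides silencing complexes to messenger RNAs that pair with its seed, bases 2 to 8. In the families of the Sfmbt2 array the 5p strands are rich in U and G, often as UG repeats, and the 3p strands are rich in A and C, often as CA repeats. These families are best known from placenta and embryonic stem cells. In RefSeq's GRCm38.p6 annotation 82 hairpin genes of the 4 families were found by symbol or synonym. Of these, 72 lay inside Sfmbt2 on chromosome 2 and 10 on other chromosomes. By name, 49 members came only from hairpins inside Sfmbt2 (26 not ending in -3p and 23 ending in -3p), 3 from hairpins inside and outside it, 8 only from outside and 1 matched no gene.

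Mature sequences were found in RefSeq's table (GRCm38.p6) for 7 members, all from hairpins outside Sfmbt2. They are shown for their base composition, and because an entry's name does not always tell its arm. With sequences for 7 members only, a link between base composition and levels was not tested across the members. Capitals mark the seed. The 3 sequences made mostly of U and G are:
miR-466j: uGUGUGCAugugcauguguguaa
miR-466k: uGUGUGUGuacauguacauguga
miR-669n: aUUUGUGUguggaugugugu
The 4 sequences made mostly of A and C are:
miR-466i-3p: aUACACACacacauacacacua
miR-466q: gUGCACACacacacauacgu
miR-467f: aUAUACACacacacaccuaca
miR-467g: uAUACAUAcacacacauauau
By this table miR-466j lies at chr10:60960802-60960824 on the plus strand, miR-669n at chr3:115979905-115979924 on the plus strand, miR-467f at chr11:69635419-69635439 on the minus strand and miR-466i-3p at chr13:17747552-17747573 on the plus strand. U and G made up 90.0% of miR-669n and 73.9% of miR-466j, while A and C made up 86.4% of miR-466i-3p, 85.7% of miR-467f and 70.0% of miR-466q. The 7 sequences carried 7 different seeds. A run of 8 alternating U and G bases (UGUGUGUG or GUGUGUGU, given strand only, each overlapping the other in a longer run) occurred in 0.56% of the 1608 array miRNAs with a sequence, and the A and C counterpart (ACACACAC or CACACACA) in 0.249%. The entries miR-466q, miR-467f and miR-467g have no arm in their name and hold A and C repeats, as does miR-466i-3p, the only -3p entry with a sequence here.

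Members were read through 30 spots each, on 1 to 4 probes. Detection, the scanner software's own call per miRNA and array, was made on all 9 arrays for 21 members, on some arrays for another 30 and on none for 10. Levels are log2 scaled signals, the background-corrected brightness of a miRNA over the 75th percentile of 289 miRNAs on its array, so that 0 is that percentile. limma tested 404 miRNAs, those with a detection call on each of the 3 arrays in some group, and they include 22 members not ending in -3p and 8 ending in -3p. Since the filter lets a member in through the group where it is bright, counts over these 30 describe them and are not values for all 61.

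Whole-array properties touched these results. Slide 2 held the controls and slide 1 everything else, so against control the effects of slide and of group cannot be told apart. Row 1 of slide 1 held its 2 male arrays, and row 2 held its 4 female ones. Between 375 and 484 miRNAs were detected per array. Control 1 stood apart, with a median correlation of 0.886 with the other arrays, against 0.951 to 0.978 for the rest, and the lowest 75th percentile of signal, 244.54 against 394.17 to 538.24. Lung markers (endothelial, epithelial, multiciliated and smooth muscle miRNAs, 12 in all) were detected on every array. Of 4 miRNAs of liver, neurons, pancreas and embryonic stem cells, 3 were detected on none. The summed level of the 2 leukocyte markers, on the log2 scale, ranged from 1.06 to 1.68 in codonopsis, 1.09 to 1.79 in model and 1.06 to 3.11 in control lungs. That of the 5 epithelial markers was 3.07 to 3.23 in codonopsis, 3.23 to 3.52 in model and 2.96 to 3.35 in control lungs. Here every codonopsis array lay below every model array, though barely (highest 3.2277 against lowest 3.2347). The summed level of the 3 heart and striated muscle markers was -1.57 to 2.60 in codonopsis, 0.94 to 1.85 in model and 0.85 to 1.44 in control lungs. Model and control lungs did not overlap for the 2 endothelial markers (5.79 to 5.91 and 5.18 to 5.69) or the 2 smooth muscle markers (0.77 to 0.98 and 1.01 to 1.41). The part of these markers in the results below was not tested. In tissue RNA, fewer cells of a type and less RNA per cell cannot be told apart.

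**Figure D1:**
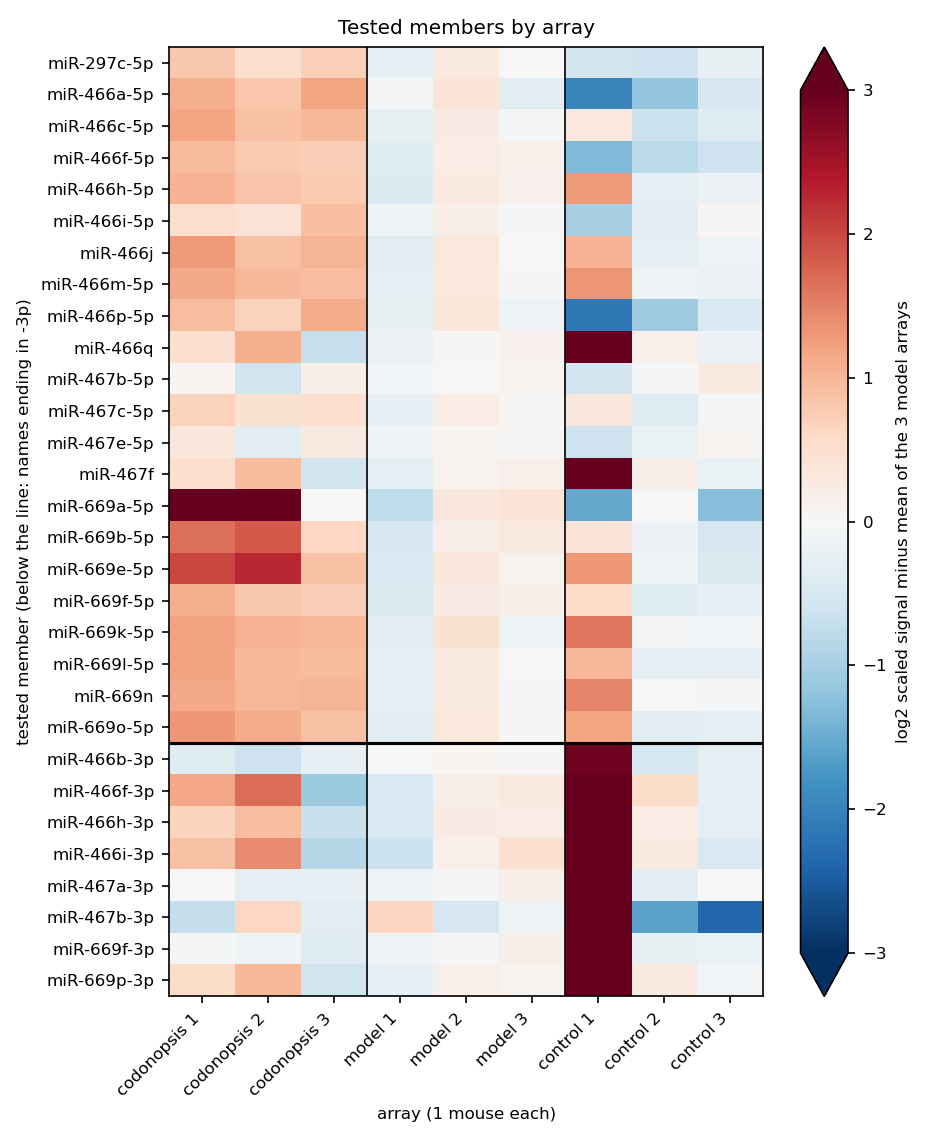
Log2 scaled signal of the 30 tested members (rows) on the 9 arrays (columns), as the difference from the mean of the 3 model arrays, with colours ending at 3 and -3. Most rows above the line are red on all 3 codonopsis arrays, while all 8 rows of -3p names, and miR-466q and miR-467f above the line, are darkest on control 1.

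Codonopsis was compared with model to see how lungs differed with the plant, within slide 1. Here 21 of the 22 tested members not ending in -3p had a higher mean on the codonopsis arrays, with differences from -0.11 to 2.16 on the log2 scale and a median of 0.96, where the 404 tested miRNAs had a median of -0.11. For 17 of the 22 every codonopsis array lay above every model array and for none below, where 14.9% of all tested miRNAs lay all above. The 8 tested -3p entries were split, with 4 higher and 4 lower, a median of 0.09, none all above and 1 all below (22.3% of all tested miRNAs lay all below). Yet no member passed in limma's fit of 9 arrays (percent called 0 in either direction over all tested miRNAs). The smallest limma adjusted p of a member in that fit was 0.192. An unadjusted limma p under 0.05 was seen for 15 of the 30 tested members and for 43 of all 404 tested miRNAs.

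The entry miR-669n, from chromosome 3, gave a processed signal of 252.8, 207.3 and 192.7 on codonopsis 1, 2 and 3, against 81.9, 121.97 and 90.9 on model 1, 2 and 3. Every codonopsis array was higher, with group levels of -1.02 ± 0.0782 and -2.08 ± 0.27 (log2 scaled signal, SD, n = 3 each), a difference of 1.06 (SE 0.39, limma adjusted p = 0.413). Its U and G repeats are those printed above. For miR-466m-5p, from the Sfmbt2 array, the processed signals were 81.8, 66.4 and 58.6 on the codonopsis arrays, against 26.4, 40.5 and 29.4 on the model arrays. Again the groups did not overlap, and the log2 difference was 1.01 (SE 0.39, limma adjusted p = 0.413). After scaling, control 1 lay above all 3 codonopsis arrays for both entries, at -0.62 for miR-669n and -2.36 for miR-466m-5p.

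The miR-669 family held the largest differences. Signals of miR-669e-5p were 168.4, 181.6 and 63.9 on codonopsis 1, 2 and 3, against 26.1, 46.8 and 37.3 on the model arrays, a log2 difference of 1.71 (SE 0.532, limma adjusted p = 0.287). Codonopsis 3, the female of its group, lay closest to the model arrays but still above them. The same order held for miR-669b-5p, with 82.2, 84.9 and 33.5 on the codonopsis arrays against 15.9, 26.4 and 26.3 on the model arrays, a difference of 1.37 (SE 0.388, limma adjusted p = 0.227). The widest gap within the group was that of miR-669a-5p, at 63.8 and 78.7 on codonopsis 1 and 2 but 6.42 on codonopsis 3, against 3.93, 8.73 and 8.597 on the model arrays. Its groups overlapped, so its fitted difference of 2.16 (SE 0.912, limma adjusted p = 0.447) rests on both male arrays. Detected on 2 model arrays and 1 control array, it was tested only through the codonopsis group, where its mean was highest.

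All 8 tested miR-669 entries not ending in -3p had positive differences (0.88 to 2.16, median 1.09), and 7 of them without overlap. Further named entries were miR-669o-5p at 1.096 (SE 0.407) and miR-669k-5p at 1.08 (SE 0.45), both from hairpins inside Sfmbt2. The 9 tested miR-466 entries of this class were also all higher, by 0.30 to 1.05, and 8 of them without overlap. The exception was miR-466q, which holds A and C repeats, and of the 9 only it and miR-466j have a sequence here. Among them miR-466c-5p had signals of 50.3, 37.1 and 36.5 on the codonopsis arrays, against 16.2, 23.2 and 17.9 on the model arrays. For miR-466i-5p the signals were 2717.7, 2304.3 and 2915.3 on the codonopsis arrays, against 1486.3, 1885.0 and 1483.0 on the model arrays, a log2 difference of 0.61 (SE 0.27).

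Differences in the miR-467 family were smaller in value. Of its 4 tested entries not ending in -3p, 3 were higher, with a median of 0.19, and only miR-467c-5p lay wholly above model, by 0.54 (SE 0.216). For miR-467b-5p the signals were 19.6, 11.1 and 17.4 on the codonopsis arrays, against 14.9, 16.2 and 16.1 on the model arrays, a difference of -0.11 (SE 0.271). For miR-467e-5p the difference was 0.10 (SE 0.239). Both groups overlapped for these 2 entries and for miR-467f. Whether families differ from each other was not tested. The single tested miR-297 entry, miR-297c-5p, was higher without overlap by 0.68 (SE 0.193).

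Signals of miR-669l-5p were 106.2, 82.7 and 74.1 on the codonopsis arrays, against 32.5, 49.4 and 37.6 on the model arrays, a difference of 1.04 (SE 0.345). Those of miR-466j were 51.0, 35.4 and 35.4, against 14.6, 23.3 and 17.1 on the model arrays, a difference of 1.05 (SE 0.352). Without overlap, miR-466h-5p differed by 0.90 (SE 0.41), miR-669f-5p by 0.88 (SE 0.296) and miR-466a-5p by 1.04 (SE 0.371).

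Of the -3p entries only miR-466b-3p was lower without overlap, at 10.8, 8.19 and 9.78 on the codonopsis arrays, against 11.9, 12.8 and 11.0 on the model arrays, a difference of -0.42 (SE 0.811, limma adjusted p = 0.794). Signals of miR-467a-3p were 27.3, 20.1 and 18.9 on the codonopsis arrays, against 20.6, 23.3 and 25.3 on the model arrays. Those of miR-669p-3p were 27.1, 33.0 and 10.06, against 13.1, 17.96 and 16.1 on the model arrays. In both the groups overlapped, as they did for miR-669f-3p at -0.19 (SE 1.08).

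Single probes were mostly of 1 sign. Of 49 probes for the 22 entries not ending in -3p, 44 were higher on the codonopsis arrays and 3 lower (2 for miR-467b-5p and 1 for miR-467e-5p). The other 2, the weakest of the 4 probes each for miR-466a-5p and miR-466f-5p, lay at the floor on every array. Of the 24 probes for the -3p entries, 14 were higher and 10 lower.

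**Figure D2:**
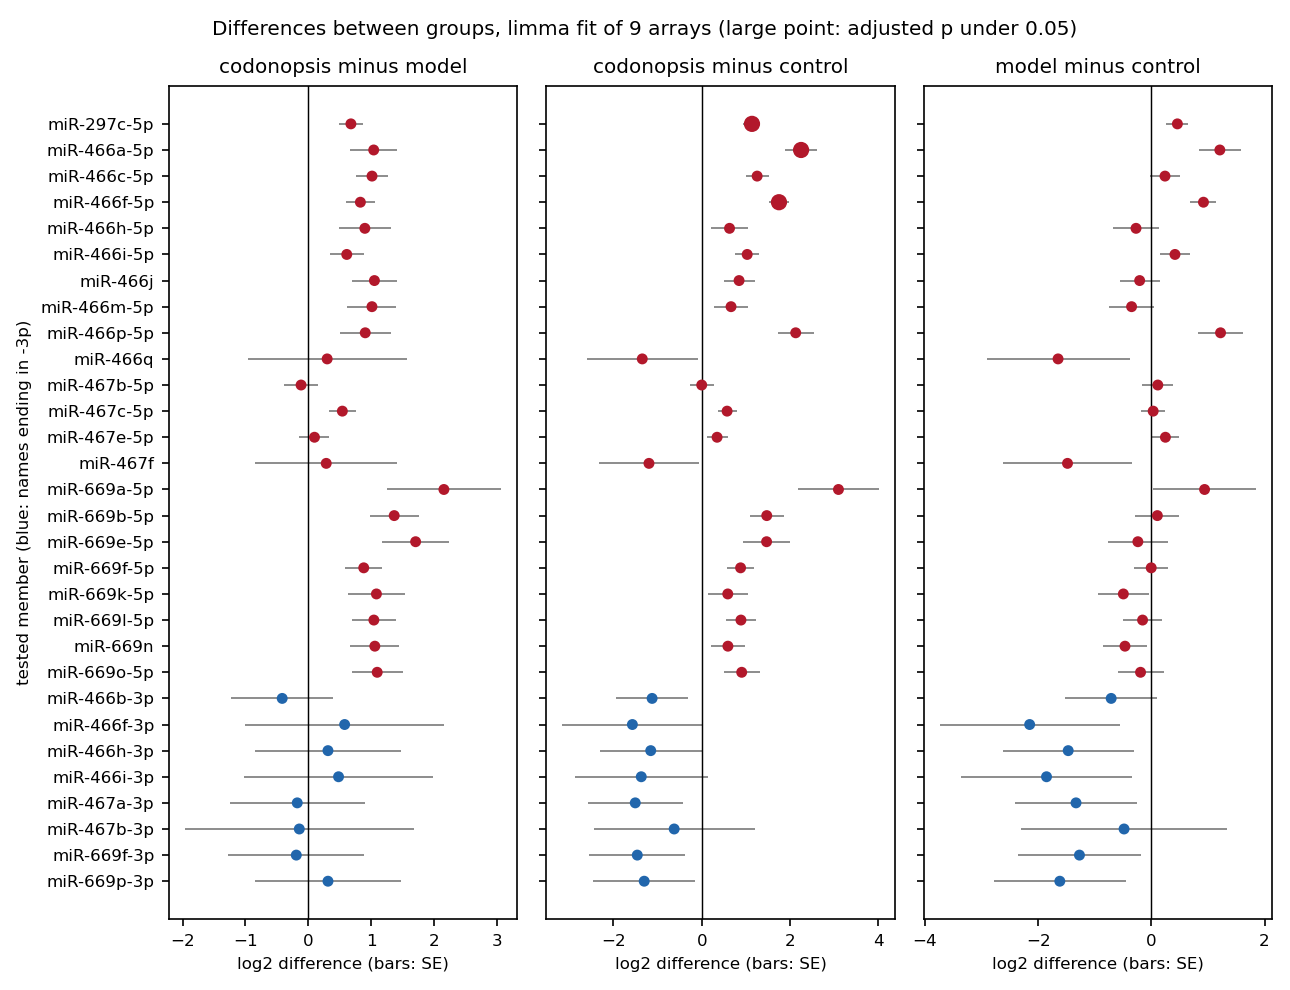
Log2 differences between groups (points, with SE as bars) of the 30 tested members in the fit of 9 arrays, names ending in -3p in blue and others in red. The red points lie mostly right of 0 in both comparisons of codonopsis, and 3 large points mark adjusted p under 0.05 against control.

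How firmly these differences stood depended on control 1, whose spread enters the variance shared by all comparisons. Without control 1 the fit called 11 members higher on codonopsis than on model arrays and none lower, where 7.92% of all tested miRNAs were called higher and 0.743% lower. All 11 were entries not ending in -3p: miR-466c-5p, miR-466f-5p, miR-466h-5p, miR-466j, miR-466m-5p, miR-669e-5p, miR-669f-5p, miR-669k-5p, miR-669l-5p, miR-669n and miR-669o-5p. Their differences of 0.83 to 1.71 are those of the fit of 9 arrays, with smaller errors. On the 6 arrays of slide 1 alone, 6 of them passed (miR-466c-5p, miR-466j, miR-466m-5p, miR-669l-5p, miR-669n and miR-669o-5p, limma adjusted p from 0.0479 to 0.0495), where 3.47% of all tested miRNAs were called higher and 0.743% lower.

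Sex was unequal between codonopsis and model. Codonopsis 3, which shares sex, slide and row with the model arrays, lay above all 3 of them for 19 of the 22 entries not ending in -3p and below all 3 for 2. Among the 374 other tested miRNAs these shares were 20.1% above and 48.7% below. For the -3p entries codonopsis 3 lay above the model arrays for none of 8 and below for 7. No model mouse was male, so a term for sex draws only on the codonopsis and control groups. There it cannot be told apart from the row of slide 1 or from control 1, the array that stood apart. With sex as a covariate the median difference over the entries not ending in -3p was 0.56, and no member passed (smallest limma adjusted p 0.191). With the female arrays alone, chosen after seeing the data, that median was 0.83 and that of the -3p entries was -0.49, with none called. In that fit codonopsis is 1 array, assumed to vary like the other groups.

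**Figure D3:**
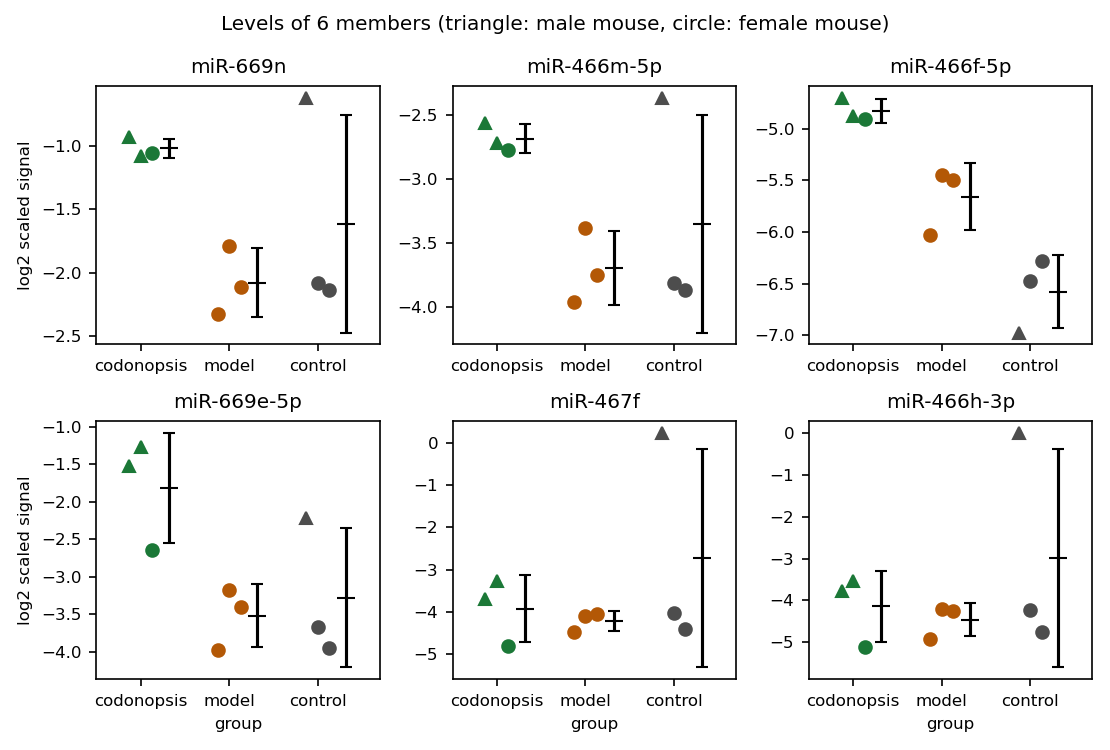
Log2 scaled signal of 6 members on each array (triangle male, circle female), with the group mean and SD beside the points. For miR-669n and miR-466m-5p the codonopsis arrays lie above all model arrays, and control 1 lies above the other 8 arrays. For miR-466f-5p control 1 is the lowest, and for miR-467f and miR-466h-3p it is far above the other 8 arrays.

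Codonopsis was also set against control, the group with no named treatment. In this comparison 3 members rose and none fell: miR-466f-5p, miR-466a-5p and miR-297c-5p. Over all tested miRNAs 0.99% were called higher and 0% lower. The signals of miR-466f-5p were 18.5, 14.9 and 13.3 on codonopsis 1, 2 and 3, against 1.95, 6.04 and 5.57 on control 1, 2 and 3. Its levels did not overlap, at -4.83 ± 0.113 in codonopsis and -6.58 ± 0.356 in control lungs (SD, n = 3 each), and it rose by 1.75 (SE 0.229, limma adjusted p = 0.0306). The weakest of its 4 probes lay at the floor on all 9 arrays. Signals of miR-297c-5p were 26.3, 19.3 and 20.4, against 5.20, 10.9 and 11.6 in controls, where 2 arrays detected it, and it rose by 1.14 (SE 0.193, limma adjusted p = 0.0426). Like miR-466a-5p below, miR-297c-5p was tested only through arrays of the treated groups.

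No control array detected miR-466a-5p. Its signals were 15.8, 12.1 and 14.1 on the codonopsis arrays, against 0.179, 3.70 and 4.79 on the controls. Its fitted log2 difference, with control 1 at the floor, was 2.25 (SE 0.37, limma adjusted p = 0.0426). Against the lowest signal of a detected miRNA, or its own signal where that was higher, it rose at least 3.75-fold, a bound that was not tested. The weakest of its 4 probes lay at the floor on all 9 arrays. This entry was tested only through arrays of the treated groups. Similar values without a call were seen for miR-466p-5p, detected on 1 control array, at 19.6, 15.0 and 18.4 on the codonopsis arrays against 1.18, 5.45 and 6.81 on the controls, a difference of 2.13 (SE 0.404, limma adjusted p = 0.0577). It too was tested only through arrays of the treated groups. Control 1 had the lowest scaled level of the 9 arrays for miR-466f-5p, miR-466a-5p and miR-466p-5p, whereas for miR-297c-5p control 2 was lowest, at -5.62 against -5.56 on control 1.

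Of the 22 tested entries not ending in -3p, 19 had a higher mean in codonopsis than in control lungs, with a median of 0.88 beside -0.03 over all tested miRNAs. For 9 of them the groups did not overlap, where 5.69% of all tested miRNAs lay all above and 6.93% all below. Among these, miR-466c-5p differed by 1.25 (SE 0.259, limma adjusted p = 0.0688) and miR-669b-5p by 1.47 (SE 0.388, limma adjusted p = 0.164). The 3 that were not higher were miR-466q and miR-467f, both with A and C repeats, and miR-467b-5p at 0.00, for which no sequence was found. Without control 1 the fit called 16 members higher and none lower, all of them entries not ending in -3p, where 9.65% of all tested miRNAs were called higher and 1.73% lower. The 3 members called with 9 arrays were among the 16.

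The 3 calls with 9 arrays depended on the processing. With detection on at least 1 array as the filter, with no filter, with the 75th percentile over all miRNAs or with quantile normalization, no member passed. With normexp, which adds 50 to each spot and so exceeds these signals, the differences were 0.08 for miR-466f-5p, 0.08 for miR-466a-5p and 0.09 for miR-297c-5p. Without codonopsis 1, without model 3 and without control 2 no member passed, while miR-466f-5p alone passed without codonopsis 2 and miR-669a-5p alone without codonopsis 3. With only both groups in the fit, or with marked spots kept, miR-466f-5p alone passed. A fit of the authors' deposited table called other members, miR-669l-5p at 1.11 (SE 0.184) and miR-669o-5p at 1.23 (SE 0.196), both with a limma adjusted p of 0.0483. With sex as a covariate the members called were miR-466a-5p, miR-466f-5p, miR-466i-5p and miR-466p-5p, with limma adjusted p from 0.0177 to 0.0221. With the scanner software's total signal per miRNA, 4 members were called higher (smallest limma adjusted p 0.000674), where 1.49% of all tested miRNAs were.

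The comparison of model with control asks how lungs differed with D-galactose and sodium nitrite. No member passed in limma (smallest adjusted p of a member 0.283, and 0% called in either direction over all tested miRNAs). An unadjusted limma p under 0.05 was seen for 4 of the 30 tested members, where 47 of all 404 tested miRNAs had one. The 22 tested entries not ending in -3p were split, 11 higher and 11 lower, with a median of 0.02 beside 0.04 over all tested miRNAs. Without control 1, 21 of the 22 were higher, with a median of 0.25 beside 0.06 over all tested miRNAs, and none passed. For 3 of them every model array lay above every control array, a share of 13.6%, where 14.4% of all tested miRNAs did so and 8.91% lay all below. These were miR-466p-5p at 1.22 (SE 0.404), miR-466f-5p at 0.92 (SE 0.229) and miR-466a-5p, seen on all model arrays but no control, at least 1.82-fold higher. Signals of miR-466f-5p were 6.28, 9.69 and 8.73 on the model arrays, against 1.95, 6.04 and 5.57 on the controls. With normexp these 3 differences were 0.02, 0.03 and 0.01. Both comparisons with control use the same 3 control arrays.

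All 8 tested -3p entries had a lower mean in model than in control lungs, by 0.48 to 2.15 on the log2 scale (median -1.40), and likewise in codonopsis lungs (median -1.34), without a call. These differences rested on control 1. Without it the medians were 0.11 in model against control and 0.28 in codonopsis against control, and 6 of the 8 were higher in each.

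Control 1 read the -3p entries far above every other array. The signal of miR-466f-3p was 274.7 on control 1, against 12.5 and 5.78 on controls 2 and 3, with 17.1, 22.2 and 2.94 on the codonopsis arrays and 4.75, 7.54 and 7.61 on the model arrays. The signal of miR-466h-3p was 246.5 on control 1, against 28.6 and 16.2 on controls 2 and 3. Over the 8 tested -3p entries it ranged from 53.9 to 279.2 on control 1, against -1.1 to 37.6 on the other 8 arrays, before any scaling. On the log2 scale their excess over the mean of controls 2 and 3 had a median of 4.54, where that of the 374 other tested miRNAs was -0.02. Of all 26 -3p members, 24 were highest on control 1, and the other 2 were detected on no array. Control 1 was highest for 24.9% of the 374 other tested miRNAs.

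Of 24 -3p members detected anywhere, 14 were detected on control 1 alone. The signal of miR-669e-3p was 224.6 there and at most 5.84 elsewhere, that of miR-467c-3p 211.4 and at most 5.69, and that of miR-297a-3p 109.0 and at most 1.05. A further 2 members seen on control 1 alone do not end in -3p, miR-467g at 205.1 against at most 5.92, and miR-669i at 58.0 against at most 0.92. The entries miR-467f and miR-466q, with the A and C repeats printed above, followed the same pattern, at 288.4 and 202.2 on control 1, against at most 45.3 and 24.3 on the other arrays.

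Of the 3 printed entries made mostly of U and G, miR-669n and miR-466j were higher on control 1 than on controls 2 and 3 after scaling, and miR-466k was detected on no array. For miR-669n control 1 read 159.2, against 127.2 and 98.8 on controls 2 and 3, an excess of 1.49 after scaling. For miR-466j it read 22.1, against 19.7 and 17.2, an excess of 1.24. Neither miR-466a-5p nor miR-466p-5p was detected on control 1. Over the 22 tested entries not ending in -3p, control 1 was above all other arrays for 6 and below all others for 6 after scaling. Those above were miR-466h-5p, miR-466m-5p, miR-466q, miR-467f, miR-669k-5p and miR-669n. Among the 374 other tested miRNAs it was above all other arrays for 93 and below all others for 108.

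**Figure D4:**
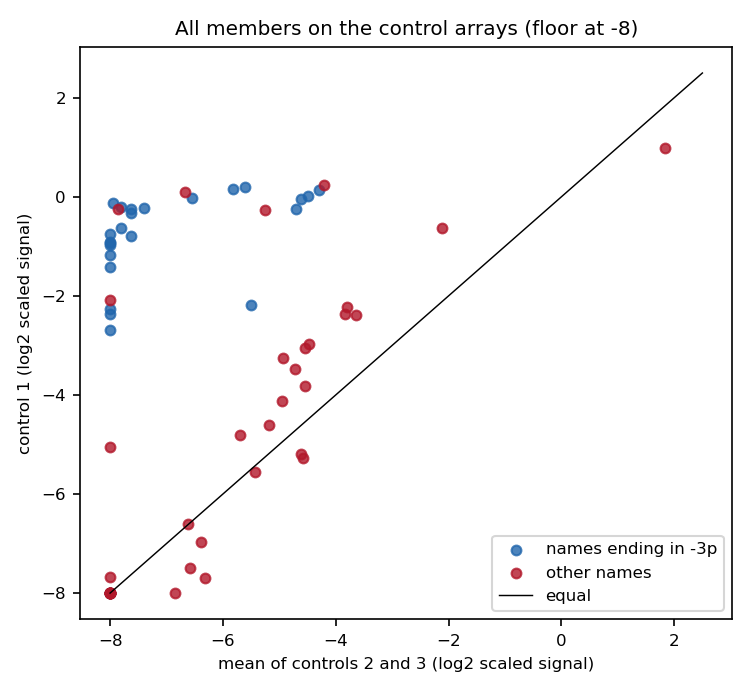
Log2 scaled signal of all 61 members on control 1 (vertical axis) against the mean of controls 2 and 3 (horizontal axis), with values under the floor drawn at -8 and a line where both are equal. Nearly all blue points, the names ending in -3p, lie high above the line, as do miR-466g, miR-466q, miR-467f, miR-467g and miR-669i among the red points, while most other red points lie nearer the line, on both sides.

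Both male codonopsis arrays exceeded the female one for 5 of the 8 tested -3p entries (62.5%), where 54.5% of the tested entries not ending in -3p and 37.4% of the other tested miRNAs did so. One of the 5 was miR-466i-3p, at 19.3 and 25.3 on codonopsis 1 and 2, and 4.82 on codonopsis 3. For 4 of the 8, all 3 male arrays lay above all 6 female arrays, and for 8 of the 22 entries not ending in -3p, where 13.9% of the other tested miRNAs did so. With sex as a covariate the median codonopsis minus model difference of the -3p entries was -1.73, against 0.09 without it, and none passed. The only male control was the array that stood apart, so in the control group sex and that array cannot be told apart.

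Other miRNAs of the array with 8 alternating U and G bases, none of them a member, were set beside the families. All 7 were tested, all 7 were higher in codonopsis than in model lungs, each without overlap (14.9% of all tested miRNAs), with a median of 0.995, and none passed. Those with the brightest signal were miR-574-5p at 0.79 (SE 0.173), miR-3082-5p at 0.96 (SE 0.244) and miR-1187 at 1.00 (SE 0.238). In codonopsis against control lungs all 7 were higher, 4 of them without overlap (5.69% of all tested miRNAs). Only miR-3097-5p passed, at 1.77 (SE 0.275, limma adjusted p = 0.0426), where 0.99% of all tested miRNAs were called higher. Its mean signal of 8.52 was the lowest of the 7. Over the 323 other tested miRNAs with a sequence, which share arrays and base composition, the share of U and G went with codonopsis minus model at a Spearman rho of 0.16 and with codonopsis minus control at 0.31.

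Members from inside and outside Sfmbt2 had similar signs in codonopsis against model. Of the 15 tested entries not ending in -3p that come only from hairpins inside Sfmbt2, 14 were higher, with a median of 1.01. All 5 from outside were higher, with a median of 0.61, and these include miR-466q and miR-467f. The difference between both sets was not tested.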

How the data were processed

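Per the file headers, the deposited processed intensity was written by Agilent Feature Extraction 11.5.1.1 (the submitters' processing notes name 10.10), corrected for background within the array and not scaled between arrays. The authors' deposited value table holds log2 values whose scaling is not given in the sources used here. Detection flags of 0 or 1 are the deposited calls. Outlier and non-uniformity marks removed 3.05% of spots. Intensity was averaged over spots of a probe, then over probes, divided by each array's 75th percentile among 289 miRNAs that every array detected, floored at 0.00391 (log2 -8) and log2-transformed. Limma 3.58.1 (R 4.3.3; lmFit, eBayes, two-sided) was fitted to 9 arrays by group, with 6 residual degrees of freedom and Benjamini-Hochberg adjustment over 404 miRNAs at 0.05. The fit was also run on simulated data with independent noise for each miRNA. That setting held no outlying array, floor, slide effect or signal shared between members, so it cannot speak to those. Replicates are separate mice, so p-values measure their spread, and precision is limited by how few arrays there are. Named members are those that passed, those detected on all arrays, and in each comparison up to 5 entries not ending in -3p and 3 ending in -3p with the largest differences without overlap; a few others named for contrast were chosen after their values were seen. The files hold no mean spot signal, so normexp used the median spot signal. Members and lists were chosen with earlier results of these data known. Near-identical members may share labelled RNA between probes.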

Additional observations from a re-analysis of the deposited data

How the results depend on the processing

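No paired analysis was possible because the numbers in the titles repeat within the control group, so replicates were numbered in accession order, which pairs no mice. The count of members higher in codonopsis than in control, 3 with 9 arrays, was 0 with the 75th percentile over all miRNAs, quantile normalization, normexp, detection on at least 1 array, no filter or the female arrays only, was 1 with marked spots kept or with only the 2 groups compared, and ranged from 0 to 16 as each array was left out, the highest without control 1. The count was 2 with the deposited log2 table, and 4 with the software's total signal per miRNA or with sex as a covariate. Weaker filters add tests by construction, and the cause of the other changes was not tested. For codonopsis against model the count, 0 with 9 arrays, was 6 with only the 2 groups compared, which are the arrays of slide 1, and ranged from 0 to 11 over arrays left out. No member was called lower in any fit. The median over tested entries not ending in -3p was 0.22 (codonopsis minus model) and 0.11 (codonopsis minus control) with normexp. For model minus control it was 0.59, 0.49 and 0.44 with the 75th percentile over all miRNAs, quantile normalization and the deposited log2 table, beside medians of 0.62, 0.36 and 0.37 over all tested miRNAs. With sex as a covariate the codonopsis minus model median over -3p entries was -1.73, of opposite sign. Over arrays left out, medians of entries not ending in -3p ranged from -0.16 to 0.25 for model minus control, 0.84 to 1.11 for codonopsis minus model and 0.66 to 1.17 for codonopsis minus control. Those of -3p entries ranged from -2.18 to 0.11, -0.07 to 0.36 and -2.16 to 0.28 in the same order. None of the members that passed or had the largest differences without overlap changed sign in the alternatives run. Other members did: without control 1, 6 of the 8 tested -3p entries were higher in model than in control lungs, against 0 with 9 arrays, and 21 of the 22 others, against 11.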
